A study of Homo sapiens with 8 samples.

Results

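The heat shock protein and DNAJ chaperone genes were followed through a short arsenite stress. They were chosen by symbol alone, as the coding genes of the HSPA, HSPB, HSPH, HSPD, HSPE and HSP90 families and of the DNAJA, DNAJB and DNAJC families. Of 19964 genes with a coding transcript, 73 carried such a symbol, and 52 of them held a mean of at least 10 reads in both assays, as did 10273 genes in all. HEK293T cells, a human embryonic kidney line that carries the large T antigen of SV40, received 40 µM sodium arsenite or vehicle for 30 min. Arsenite binds thiols and causes oxidative stress, and it leads to phosphorylation of the initiation factor eIF2, which lowers translation of most mRNAs. Each treatment was profiled by ribo-seq, which reads the fragments that ribosomes protect from nuclease, and by mRNA-seq of fragmented polyadenylated RNA from the same lysates, with 2 biological replicates of each, so 8 libraries in all. The labels give the cells no other agent or modification, and no other dose, time or cell line is compared.

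Chaperones bind unfolded stretches of other proteins and help them to fold, to reach their compartment or to be degraded. HSP70 proteins (HSPA) hold a substrate in an ATP-driven cycle, J-domain proteins (DNAJ) bring the substrate and stimulate that cycle, HSP110 proteins (HSPH1, HSPA4) release the nucleotide, HSP90 proteins act late on kinases and receptors, and small heat shock proteins (HSPB) hold unfolded chains without ATP. When unfolded proteins accumulate in the cytosol, the transcription factor HSF1 is freed from chaperones and switches on a subset of these genes. Many chaperones of the endoplasmic reticulum (ER) and of mitochondria answer to other stress pathways as well, and many members are expressed at all times.

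The members were put into 4 classes from textbook knowledge, and the class names do not mean that HSF1 acts on a single class only. The HSF1-inducible class held 7 of 9 genes that passed the read minimum, the ER class 13 of 13, the mitochondrial class 8 of 9, and the constitutive and other class 24 of 42. By family, 18 of 28 heat shock protein genes and 34 of 45 DNAJ genes passed. The 21 genes below the minimum were the HSF1 targets HSPA1A and HSPA6, the mitochondrial DNAJC15, the muscle and testis forms HSPB2, HSPB3, HSPB6, HSPB7, HSPB9, HSPA1L, DNAJB3, DNAJB8 and DNAJC5B, and HSPB8, HSPA12B, DNAJA4, DNAJB7, DNAJB13, DNAJC5G, DNAJC22, DNAJC25 and DNAJC27. HSPA6, a strictly stress-induced HSP70, held 0, 2, 0 and 6 mRNA-seq reads in control replicates 1 and 2 and arsenite replicates 1 and 2, and 0 or 1 footprint on its coding region (CDS) in every library. HSPA1A, the major inducible HSP70, had no more than 1 mRNA-seq read in either control and 0 and 6 in arsenite.

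Promoters were searched for 2 kinds of motif, because HSF1 and the ER stress factor ATF6 are known to bind letters of this kind. HSF1 binds alternating copies of GAA and TTC with a spacing of 2 bases. A run of 3 such units (GAANNTTCNNGAA or TTCNNGAANNTTC, which are each other's reverse complement) was searched for, and so was a pair of units (GAANNTTC or TTCNNGAA, each its own reverse complement, and contained in every run of 3). The ER stress element was searched for as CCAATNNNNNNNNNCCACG on both strands. RefSeq promoters from 250 bases before to 50 bases after the gene start (build GRCh38.p14) were found for 49 of the 52 members. The run of 3 stood in 172 of 35116 promoters (0.490%) and in 3 of the 49 members (DNAJA1, DNAJB6 and HSPA8). The pair stood in 13.5% of all promoters and in 6 of the 49 (12.2%), which adds HSPA1B, HSPA9 and HSPB1. The ER element stood in 27 promoters (0.0769%), among them HSPA5 and HSP90B1. Of the 7 HSF1-inducible members, 1 held the run of 3 and 3 held the pair. HSP90AA1, HSPH1, DNAJB1 and DNAJB4 of that class held neither. A match or its absence is a description of letters and not of binding. The 8 stretches below were picked from promoters that held a match. HSP90AB1, DNAJC10 and DNAJC19, whose RNA levels were called as changed, held no match to any of these motifs and are not shown. DNAJA1, HSPA5 and HSP90B1, whose RNA was not called, and HSPA1A, below the read minimum, are shown. Left out are the run of 3 in DNAJB6 and the pair in HSPB1, whose RNA was not called. The run of 3 in HSPA6 and pairs in other genes below the read minimum are left out too. In the stretches, written 5′ to 3′ on the gene's strand, capitals mark the fixed letters of the motif.
HSPA8, chr11:123062171-123062199, minus strand: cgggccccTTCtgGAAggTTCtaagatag
HSPA8, chr11:123062346-123062374, minus strand: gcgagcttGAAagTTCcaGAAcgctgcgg
DNAJA1, chr9:33025268-33025296, plus strand: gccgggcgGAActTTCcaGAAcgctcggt
HSPA1B, chr6:31827622-31827651, plus strand: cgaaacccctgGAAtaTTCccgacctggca
HSPA1A, chr6:31815426-31815455, plus strand: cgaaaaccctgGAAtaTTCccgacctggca
HSPA9, chr5:138575387-138575416, minus strand: tggttggaggtTTCcaGAAgcgctgccgcc
HSPA5, chr9:125241386-125241414, minus strand: cttcaCCAATcggcggcctCCACGacggg
HSP90B1, chr12:103930211-103930239, plus strand: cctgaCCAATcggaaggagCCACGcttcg

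With one transcript per gene, the depth of ribo-seq was 1900751 reads for control and 1023950 for arsenite in replicate 1, and 7270246 for control and 3043891 for arsenite in replicate 2. For mRNA-seq it was 3993246 and 4018707 in replicate 1, and 19435768 and 21725606 in replicate 2. Replicate 1 was therefore shallower, and it limits the members with few reads most. The replicates had different adapters and sequencing runs. A member's level often lay further apart between replicates than between treatments, the cause of which was not tested, and changes were estimated within replicates. Levels are given as CPM, the reads of a gene scaled to the size of its library, with TMM factors for the members. Of the markers checked, VIM (269 to 415 mRNA-seq CPM) and LIN28B (134 to 162) were abundant, NEFM, NEFL, KRT18 and KRT8 were present, PAX2 was low (at most 3.73), and ALB, PTPRC, INS, MYH7, PECAM1 and COL1A2, which mark other cell types, stood between 0 and 1.03.

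HSPA1B, HSP90AB1, HSPA9, HSPA8 and DNAJC10 had higher RNA levels in arsenite, and DNAJC19 a lower one. Changes in RNA level were tested on mRNA-seq counts over the whole transcript with edgeR's quasi-likelihood test, the replicate as a block and Benjamini-Hochberg adjustment over 12600 genes, and a gene was called at an adjusted p under 0.05. TMM scaling makes every change relative to the bulk of mRNAs. Of all genes tested, 5.81% were called, 3.76% as higher and 2.05% as lower. Of the 52 members 5 were higher and 1 lower, and none of the 5 further members that reached the minimum in mRNA-seq alone was called. Calls were more frequent at greater depth. Of the 3306 genes with a mean of at least 1000 mRNA-seq reads 9.38% were called as higher and 4.36% as lower, beside 5 and 0 of the 27 members at that depth. Of the heat shock protein genes 4 of 18 were higher, and of the DNAJ genes 1 was higher and 1 lower of 34, with median log2 changes of 0.11 and 0.01 beside -0.01 over all genes tested. These calls rest on pairing within replicates. Without the replicate block edgeR called 0 genes in all, and 1 member, HSPA1B, had an unadjusted p under 0.05 (0.0306). The cells are counted as a bulk, so fewer cells with an RNA and less RNA per cell cannot be told apart.

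**Figure D1:**
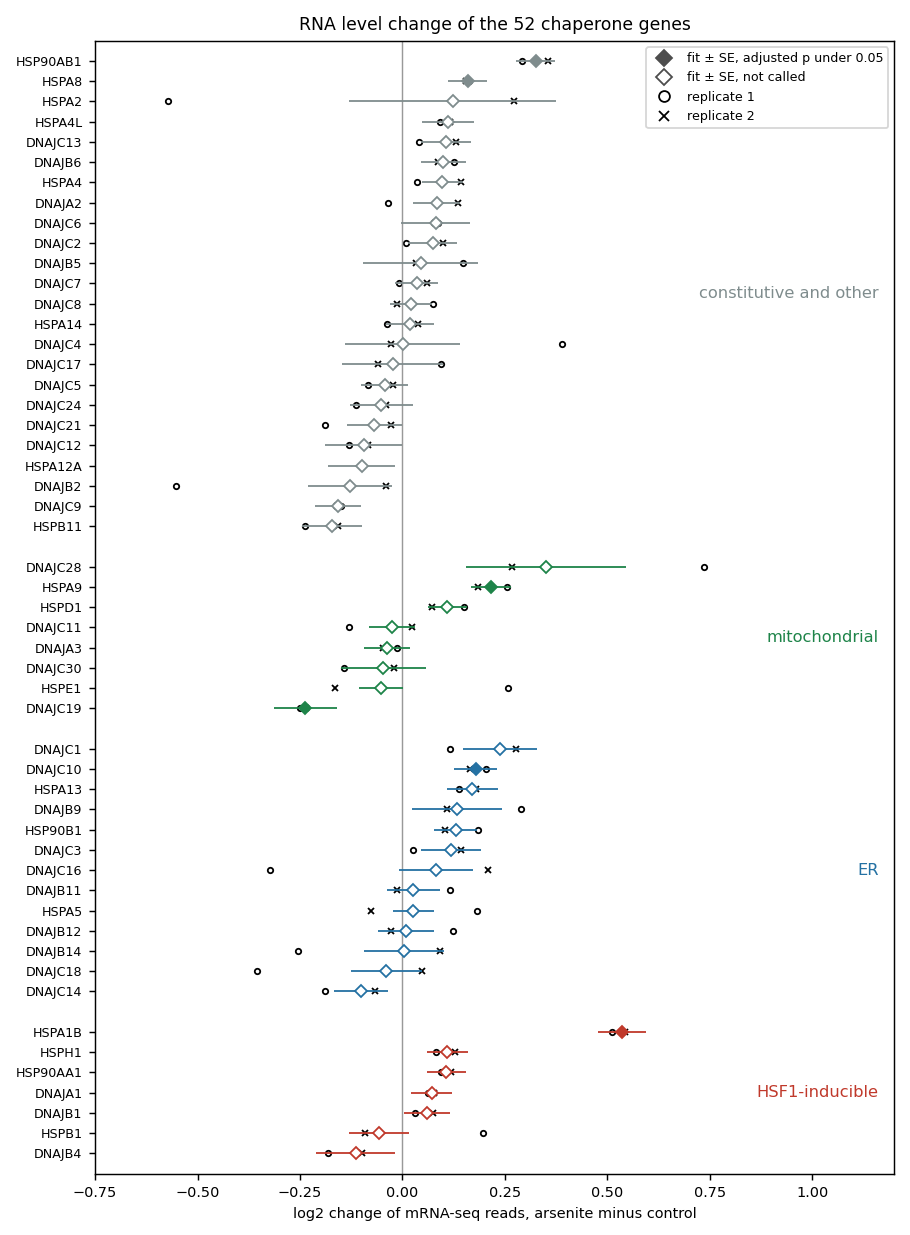
Log2 change of mRNA-seq reads (arsenite minus control, horizontal axis) for each of the 52 members, grouped by class. Diamonds with bars are the edgeR fit ± SE, filled where the adjusted p was under 0.05, and circles and crosses are replicates 1 and 2. HSPA1B stands furthest to the right of the called members at 0.53, and most others lie within 0.25 of 0.

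Of the HSF1-inducible members only HSPA1B was called. HSPA1B, the copy of the inducible HSP70 that lies beside HSPA1A on chromosome 6, stood at 106 and 92.9 mRNA-seq CPM in control and at 151 and 136 in arsenite (replicates 1 and 2). Both arsenite libraries lay above both control libraries, and the replicates gave changes of 0.51 and 0.54 on the log2 scale. The fitted log2 change was 0.53 ± 0.058 (SE), with an adjusted p of 4.60e-17 (edgeR). HSP90AA1, the stress-responsive cytosolic HSP90, stood at 3454 and 1995 CPM in control and at 3689 and 2166 in arsenite. It was higher within each replicate, but the groups overlapped and its change of 0.11 ± 0.047 was not called (edgeR adjusted p = 0.175). HSPH1, an HSP110 exchange factor, was at 0.11 ± 0.051 (edgeR adjusted p = 0.21), with 383 and 248 in control and 405 and 272 in arsenite. DNAJB1, the J-domain partner of the inducible HSP70, stood at 169 and 107 in control and 173 and 112 in arsenite, a change of 0.06 ± 0.056 (edgeR adjusted p = 0.64). DNAJA1, whose promoter holds a run of 3 units, was at 0.07 ± 0.051. HSPB1, a small heat shock protein, was at -0.06 ± 0.073 with replicate changes of 0.20 and -0.09, and DNAJB4 was the lowest of the class at -0.11 ± 0.096. Neither was called, and the median over the class was 0.07.

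**Figure D2:**
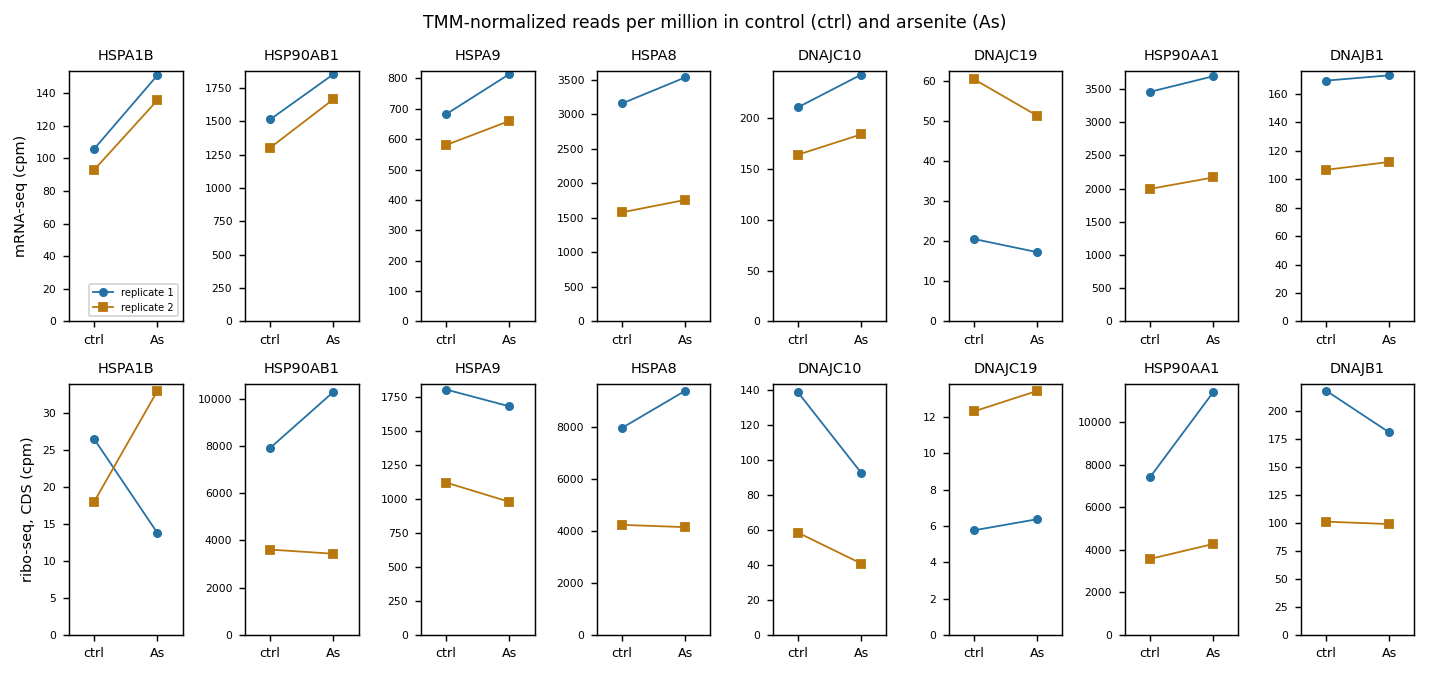
CPM in control (ctrl) and arsenite (As) for 8 members, mRNA-seq over the transcript in the upper row and ribo-seq over the CDS in the lower row, with every axis starting at 0 and a line joining the libraries of a replicate. In mRNA-seq the HSPA1B and HSP90AB1 arsenite libraries lie above both controls, whereas in ribo-seq the HSPA1B lines cross.

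The reads of HSPA1B and HSPA1A need care, because their coding regions are almost identical and the authors discarded reads that mapped to more than one gene. HSPA1B kept 5.02% of its mRNA-seq reads on the CDS, the lowest of the 52 members, beside a median of 61.9% over the members and 59.6% over all genes passing, of which 14 had a lower share. On the CDS it had 16 and 103 mRNA-seq reads in control, with 13 and 164 in arsenite. Its 3′ UTR held 252 and 1379 in control and 333 and 2212 in arsenite, and its 5′ leader 143 and 384 in control and 238 and 663 in arsenite. Per total reads, the leader stood 1.65-fold and 1.54-fold higher in arsenite and the 3′ UTR 1.31-fold and 1.44-fold, while the CDS stood at 0.807-fold and 1.42-fold. With CDS reads alone the change in HSPA1B was 0.42 and was not called (edgeR adjusted p = 0.197). HSPA1A, in contrast, was at or near 0 over its whole transcript, its 3′ UTR included (0 and 0 in control, 0 and 4 in arsenite), and whether the discarding of shared reads or low expression left it there was not tested. Adding the reads of both copies left the call on HSPA1B and all other calls on members as they were. HSPE1 and DNAJC25 have readthrough genes as well. HSPE1 had 0 leader reads in all 8 libraries and HSPE1-MOB4 had 0 reads in total, while DNAJC25 had 0 leader reads and DNAJC25-GNG10 at most 1 read in a library. The part of shared sequence in these values was not tested.

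**Figure D3:**
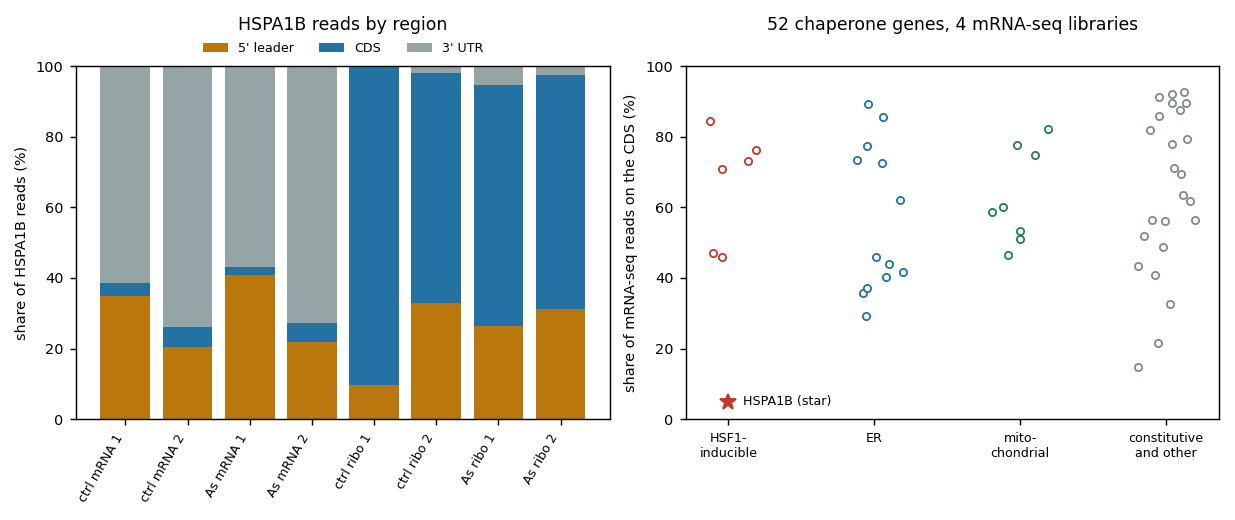
Left, the share (%) of HSPA1B reads on the 5′ leader, CDS and 3′ UTR in each of the 8 libraries. Right, the share (%) of mRNA-seq reads on the CDS over the 4 mRNA-seq libraries for each of the 52 members by class, with HSPA1B as a star at 5.02%, below every other member.

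Of the constitutive members, HSP90AB1 and HSPA8 were higher in arsenite. HSP90AB1, the cytosolic HSP90 that cells make at all times, stood at 1513 and 1301 mRNA-seq CPM in control and at 1851 and 1664 in arsenite. Both arsenite libraries lay above both controls. Its log2 change was 0.32 ± 0.048, with 0.29 and 0.35 in the replicates and an edgeR adjusted p of 3.78e-09. HSPA8, the constitutive HSP70, stood at 3160 and 1582 in control and at 3537 and 1761 in arsenite. Here the groups overlapped, since replicate 1 lay far above replicate 2 in both treatments. The change within replicates was 0.16 and 0.15, and the fit gave 0.16 ± 0.047 (edgeR adjusted p = 0.0197), a call that was lost with CDS reads alone (edgeR adjusted p = 0.0885). Of the members with a run of 3 HSF1 units in the promoter, HSPA8 was called, while DNAJB6, a J-domain protein that limits aggregation (0.10 ± 0.054), and DNAJA1 were not. HSPA4, an HSP110 exchange factor, was at 0.10 ± 0.050 and not called. The members of the class that were not called lay between -0.17 (HSPB11, an intraflagellar transport protein that carries a heat shock symbol) and 0.12 (HSPA2), and the median of the class was 0.03. DNAJC9, a histone co-chaperone, had -0.16 ± 0.057 with -0.15 and -0.16 in the replicates and an edgeR adjusted p of 0.0751.

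Among the mitochondrial members 1 was higher and 1 lower. HSPA9, the HSP70 of the matrix, which pulls proteins through the import channel, stood at 682 and 581 mRNA-seq CPM in control and at 814 and 660 in arsenite. Its change was 0.22 ± 0.049, with 0.25 and 0.18 in the replicates (edgeR adjusted p = 8.09e-04), although the groups overlapped. DNAJC19, a J-domain protein of the inner membrane that belongs to the same import machinery, stood at 20.6 and 60.5 in control and at 17.3 and 51.4 in arsenite. It fell by 0.24 ± 0.076 on the log2 scale, by nearly the same amount in each replicate (-0.25 and -0.23, edgeR adjusted p = 0.0383), while replicate 1 held far fewer reads of it than replicate 2 (80 and 67 against 1214 and 1152). Its call was lost without the filter on low counts (edgeR adjusted p = 0.0507) and with CDS reads alone (edgeR adjusted p = 0.213). HSPD1, the mitochondrial chaperonin, stood at 1449 and 1471 in control and 1609 and 1547 in arsenite. Both arsenite libraries were above both controls, but the change of 0.11 ± 0.048 was not called (edgeR adjusted p = 0.174). Its partner HSPE1 was at -0.05 ± 0.054, with 0.26 and -0.17 in the replicates, and DNAJA3, a J-domain partner of HSPA9, at -0.04 ± 0.056. The highest value of the class, 0.35 ± 0.195 in DNAJC28, rested on 15 and 84 reads in control, 25 and 113 in arsenite, and was not called. The median of the class was -0.03, while the replicates alone gave 0.069 and 0.0014.

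Of the ER members, DNAJC10 was called. DNAJC10, a J-domain protein with thioredoxin domains that reduces disulfides of misfolded proteins, stood at 210 and 164 mRNA-seq CPM in control and at 242 and 184 in arsenite. It was higher within both replicates, by 0.20 and 0.17, while the groups overlapped, and the fit gave 0.18 ± 0.053 (edgeR adjusted p = 0.0184). The call was lost with DESeq2 (adjusted p = 0.272) and with CDS reads alone (edgeR adjusted p = 0.133). The other 12 members were not called, though 11 of the 13 changes in this class were above 0, beside 47.7% of all genes tested, and 7 of the 13 had the same sign in both replicates. HSPA5 (BiP), the ER HSP70 and the classic target of the unfolded protein response, stood at 386 and 337 in control and at 438 and 319 in arsenite. Its replicates went in opposite directions (0.18 and -0.08), and the fit gave 0.03 ± 0.051. HSP90B1 (GRP94), the ER HSP90, was at 0.13 ± 0.053 (edgeR adjusted p = 0.133), with 207 and 213 in control and 235 and 229 in arsenite, which did not overlap. These are the members with an ER stress element in the promoter. DNAJB9, a co-chaperone that controls the sensor IRE1, was at 0.13 ± 0.109, DNAJC3, which binds the eIF2 kinase PERK, at 0.12 ± 0.073, and DNAJB11, a BiP cofactor, at 0.03 ± 0.065. DNAJC1 had the highest value of the class (0.24 ± 0.090, edgeR adjusted p = 0.0957) and DNAJC14 the lowest (-0.10 ± 0.067). The median of the class was 0.08.

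Of 41 co-chaperones and heat shock regulators tested, 9 were higher and 2 lower, beside 3.76% and 2.05% of all genes tested. At a mean of at least 1000 mRNA-seq reads those shares were 9.38% and 4.36%, and this list was not split by depth. Their calls were not followed under the alternative settings. BAG6, which handles tail-anchored and stray membrane proteins, had the largest change of those called, from 164 and 185 mRNA-seq CPM in control to 226 and 236 in arsenite, 0.39 ± 0.053 (edgeR adjusted p = 1.96e-10). BAG3, an HSP70 exchange factor and HSF1 target, stood at 31.9 and 32.4 in control and at 38.5 and 41.1 in arsenite, 0.33 ± 0.083 (edgeR adjusted p = 3.65e-03). In both genes the arsenite libraries lay above the controls. UNC45A (0.24), a myosin and HSP90 co-chaperone, VCP (0.19), a segregase of ER-associated degradation, FKBP4 (0.17), an HSP90 immunophilin, HYOU1 (0.17), an ER HSP110, LONP1 (0.17), a mitochondrial protease, and SEC63 (0.16), an ER J-domain protein, were also higher. HYOU1, LONP1 and SEC63 lay near the threshold (edgeR adjusted p = 0.0419, 0.0423 and 0.0469). HSBP1, which binds HSF1, fell by 0.21 and AHSA2, related to an HSP90 activator, fell by 0.24. HSF1 itself stood at 92.9 and 68.6 CPM in control and at 91.4 and 66.2 in arsenite, and was not called.

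No member was called in ribosome occupancy. Occupancy was tested in the same way on ribo-seq reads over the CDS, where 2.89% of 10291 genes were called (1.51% higher and 1.38% lower). Of the 52 members 0 were called by edgeR and 0 by DESeq2, which gave no adjusted p for 25 of them, and 6 had an unadjusted edgeR p under 0.05, beside 17.6% of all genes. Since these values too are relative to the bulk of mRNAs, a value of 0 stands for a member that kept its share of the remaining footprints. The chaperones as a group held 3.46% and 2.23% of all CDS footprints in control and 4.13% and 2.27% in arsenite (Wilson intervals, at 95%, 3.44 to 3.49, 2.22 to 2.24, 4.09 to 4.17 and 2.25 to 2.29). These intervals cover counting error only. HSPA8, HSP90AA1 and HSP90AB1 alone took 54.9% to 69.8% of these chaperone footprints.

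HSP90AA1 had the highest occupancy change of its class, from 7419 and 3571 CDS CPM in control to 11417 and 4273 in arsenite. It was higher within both replicates (0.62 and 0.26), but the groups overlapped and the change of 0.44 ± 0.186 was not called (edgeR adjusted p = 0.211). HSP90AB1 stood at 7912 and 3608 in control and at 10281 and 3431 in arsenite, with replicate changes of 0.38 and -0.07. HSPA8 stood at 7984 and 4241 in control and 9416 and 4153 in arsenite. Both were therefore higher in replicate 1 alone. HSPA1B rested on 46 and 139 CDS footprints in control and 13 and 108 in arsenite, with replicate changes of -0.93 and 0.87, so its fitted 0.30 ± 0.328 carries no direction. DNAJB1 was lowest of its class at -0.15 ± 0.186. Of the ER members, HSPA5 was highest at 0.25 ± 0.179, with 0.24 and 0.26 in the replicates (1073 and 932 CPM in control, 1270 and 1114 in arsenite), and was not called. HSPA9 (-0.15), HSPD1 (-0.26) and HSPE1 (-0.39) of the mitochondria had values below 0 in each replicate and were not called. Of the 8 mitochondrial members 4 were above 0. Their median was 0.04, but the replicates alone gave -0.11 and -0.03.

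The nearest to the threshold in occupancy was DNAJC5, the cysteine string protein, a J-domain protein of secretory vesicles. It stood at 57.1 and 41.5 CDS CPM in control and at 24.4 and 25.4 in arsenite, with both arsenite libraries below both controls. Its change of -0.90 ± 0.250 had an edgeR adjusted p of 0.0506, and it was called with upper-quartile factors, with DESeq2 size factors, without the filter and at a mean of at least 50 counts. HSPB11 (-0.79 ± 0.258, edgeR adjusted p = 0.0996) was called under the last 3 of these. DNAJC4 had the lowest value of all members, -1.13 ± 0.516, on 12 and 43 footprints in control and 5 and 6 in arsenite. HSPA2 had the highest, 0.76 ± 0.376, on 16 and 44 in control and 10 and 38 in arsenite. DNAJC28, highest of the mitochondrial class at 0.47 ± 0.527, held at most 12 footprints in any library. None of the 3 was called.

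**Figure D4:**
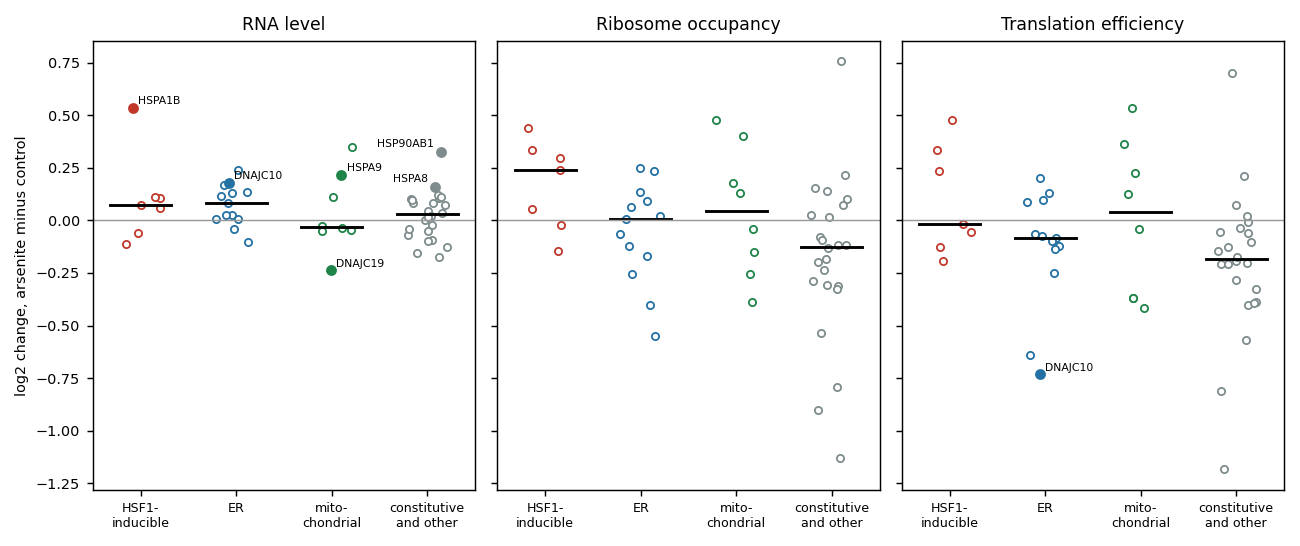
Log2 change (arsenite minus control, vertical axis) of RNA level, ribosome occupancy and translation efficiency for the 52 members by class. Points are genes, filled and named where the adjusted p was under 0.05, and bars are class medians. The spread is far narrower for RNA than for the other measures, and 1 point, DNAJC10, is filled in translation efficiency.

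Translation efficiency (TE), the occupancy per RNA level, was tested as the interaction of assay and treatment in 1 edgeR model over the 8 libraries, where 2.15% of 10273 genes were called, 1.03% as higher and 1.12% as lower. Of the 52 members, DNAJC10 was called as lower and none as higher, and 10 had an unadjusted p under 0.05, beside 21.3% of all genes. DNAJC10 stood at 138 and 58.3 CDS CPM in control and at 92.4 and 40.7 in arsenite, while its RNA level was the higher in arsenite. Its TE fell by 0.73 ± 0.158 on the log2 scale, with -0.79 and -0.68 in the replicates, and its edgeR adjusted p of 0.0491 lay just under the threshold. The call was lost in 9 of 11 alternatives, in which the change lay between -0.68 and -0.77. DNAJC5 (-0.81 ± 0.201, edgeR adjusted p = 0.0631) and DNAJC1 (-0.64 ± 0.190) were below 0 in both replicates and not called.

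The TE values of the other members were mostly small and below 0. Of the 52, 37 were below 0, as were 5280 of the 10273 genes tested. The median over the members was -0.10, beside -0.01 over all genes tested, but the replicates gave 0.01 and -0.13. Of the HSF1-inducible members, HSP90AA1 was at 0.33 ± 0.147 with 0.53 and 0.14 in the replicates, HSPB1 at 0.23 ± 0.168, HSPH1 at -0.13 ± 0.150, DNAJA1 at -0.02 ± 0.144, and DNAJB1 was the lowest at -0.19 ± 0.155. DNAJB4 was the highest at 0.48 ± 0.285, with -0.01 and 0.87 in the replicates. The members with the largest called RNA changes had TE changes of -0.06 ± 0.328 (HSPA1B, on the few reads described above) and -0.17 ± 0.161 (HSP90AB1). In the mitochondria HSPA9 (-0.37 ± 0.141), HSPD1 (-0.37 ± 0.134) and HSPE1 (-0.42 ± 0.179) were below 0 in each replicate, with edgeR adjusted p of 0.177, 0.159 and 0.217, while DNAJC30 was highest at 0.53 ± 0.273, with -0.11 and 0.67 in the replicates. Of the 8 mitochondrial members 4 were above 0 in TE, and their median was 0.04. HSPA5 was the highest of the ER class at 0.20 ± 0.153. In the constitutive and other class 20 of 24 were below 0 and the median was -0.18, but the replicates gave 0.07 and -0.28. HSPA2 was highest at 0.70 ± 0.399 and DNAJC4 lowest at -1.18 ± 0.474. Since TE is occupancy minus RNA level, the RNA changes above enter it with the opposite sign.

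Footprints on the 5′ leaders were too few for most members. At a mean of at least 10 leader and 10 CDS footprints, 7 members were tested for a shift of footprints from CDS to leader among 647 genes, of which 0.155% were called and 29.2% had an unadjusted p under 0.05. None of the members was called. All 7 shifts were above 0, as were 544 of the 647, and the median was 1.28 on the log2 scale beside 0.82 over all genes tested. Of the 7, 5 (71.4%) had an unadjusted p under 0.05. HSP90AB1 held 20 and 193 leader footprints in control and 22 and 186 in arsenite, while its CDS footprints went from 13729 and 27810 to 9678 and 11223. Its shift was 0.98 ± 0.353, with 0.63 and 1.25 in the replicates (edgeR adjusted p = 0.132). HSPA5 held 7 and 47 leader footprints in control and 7 and 66 in arsenite, a shift of 1.28 ± 0.420 (edgeR adjusted p = 0.120). DNAJC10 rested almost wholly on replicate 2, with 22 leader footprints in control and 18 in arsenite and 1 in each library of replicate 1, and gave 1.49 ± 0.461 (edgeR adjusted p = 0.114). HSPA4 (1.54), HSPA8 (1.33) and HSP90AA1 (0.66) had negative values in replicate 1, where each held at most 2 leader footprints in a library. HSPA1B had the highest leader share of footprints of all members (29.4%), over the few CDS footprints that it kept. Its shift was 0.55 ± 0.660, with 1.78 and -0.10 in the replicates.

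In unstressed cells the HSF1-inducible class had the highest median translation efficiency of the 4 classes and the mitochondrial class the lowest, which is given as a description. The control TE was taken as log2 of the CDS share of ribo-seq reads over the CDS share of mRNA-seq reads, so that CDS length cancels, relative to the median of all genes, and is a level with no test. Its median was 0.91 in the HSF1-inducible class, 0.42 in the ER class, 0.24 in the constitutive and other class and 0.07 in the mitochondrial class, beside 0.38 over the 52 members, 37 of which were above 0. The order of the first and last class was the same in both replicates (1.24 and 0.59 against 0.40 and 0.08), but the replicates lay further apart than the middle classes did. HSPA1B had the highest value, 1.84 ± 0.792 (SD, n = 2), which rests on its 16 and 103 CDS mRNA-seq reads. Next came HSP90AB1 at 1.75 ± 0.662, HSPA5 at 1.47 ± 0.210, HSPA13 at 1.39 ± 0.227 and HSPE1 at 1.37 ± 1.12, which do not differ beyond their spread. HSPA8 (1.15 and 1.13), HSPA4 (1.49 and 0.90), HSPA9 (1.42 and 0.89) and HSP90AA1 (1.24 and 0.79) were above 0 in both replicates too. At the other end stood DNAJC14 at -1.65 ± 0.533, DNAJC19 at -0.97 ± 1.39 and DNAJC10 at -0.89 ± 0.461. DNAJC10 was thus among the members read least in control, and DNAJC14 and DNAJC10 were below 0 in both replicates.

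**Figure D5:**
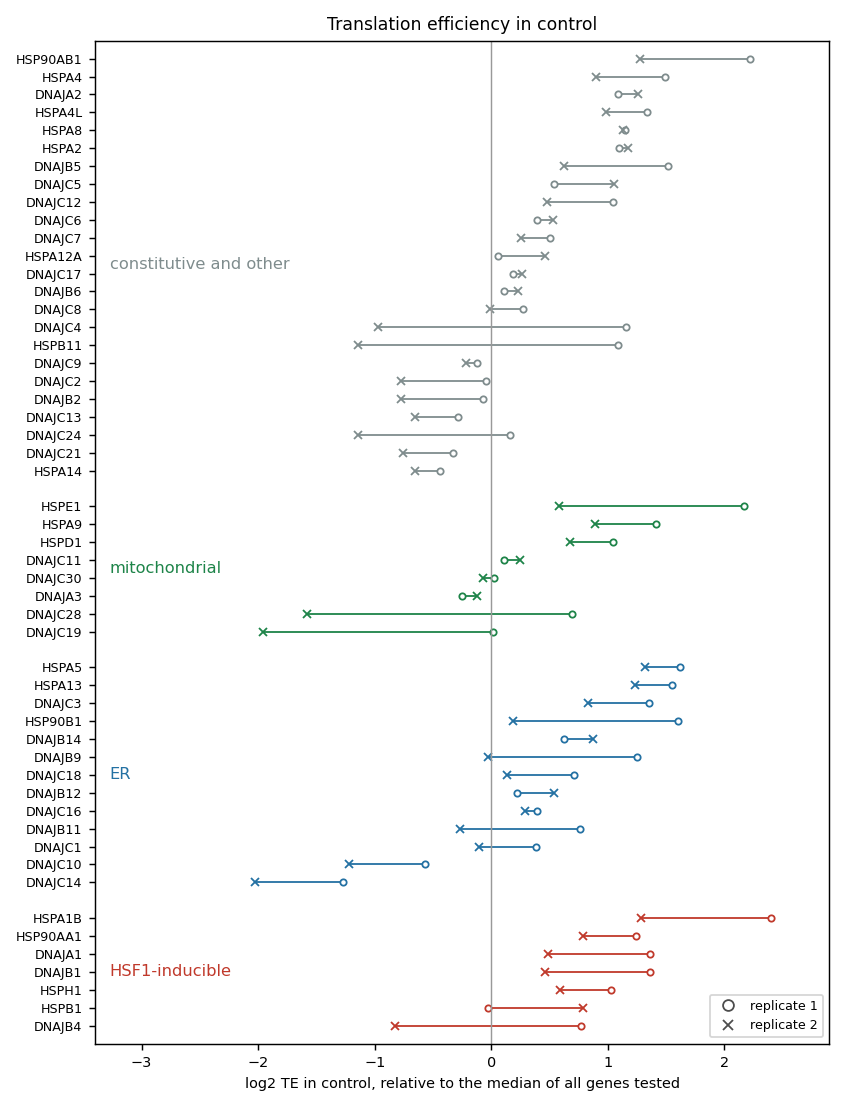
Translation efficiency in control (log2, relative to the median of all genes tested) of the 52 members by class, with circles for replicate 1 and crosses for replicate 2 joined by a line. Long lines, as in HSPE1 or DNAJC28, mark members whose replicates lie far apart. HSPA8 lies at 1.15 and 1.13, DNAJC14 at -1.28 and -2.03.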

How the data were processed

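Per the labels and the study's methods, the authors trimmed reads with cutadapt, removed spike-in and rRNA reads, aligned to RefSeq transcripts with Bowtie 1.0.0, discarded reads of more than one gene and set ribo-seq reads at the inferred A-site. They deposited raw counts per transcript and per leader, CDS and 3′ UTR, with replicate 2 summed over its sequencing runs. The data processing text itself was not used here. Of each gene, the transcript whose CDS held the most control footprints, summed over replicates, was used. The members and lists were chosen with earlier results of these data known, and the motifs likewise.

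Counts were tested with edgeR 4.0.16 (R 4.3.3; glmQLFit, TMM, mean of at least 10 counts, Benjamini-Hochberg, 0.05), with the replicate as a block, within each assay for TE. Libraries of the same number were paired because the methods give each replicate its own adapter, runs and normalization. Libraries of a number deviated together from the group means, with correlations of 0.672 over 12600 genes in mRNA-seq and 0.664 over 10291 in ribo-seq. The SE is the size of the change over the square root of F, and a prior count of 0.5 entered the changes of single replicates. The fits were also run on counts simulated from their own means and dispersions, which checks the code and not the calls reported here. Spike-in scaling was not used. The labels do not say whether replicates were separate cultures, though the methods call them biological. P-values measure the spread between these libraries only. With so few libraries, edgeR takes most of a gene's spread from a value pooled over the genes tested. The p-value and SE of a gene, such as those of HSPA1B, therefore do not rest on its own spread alone. Named genes are called members and co-chaperones, fixed representatives of each class, the highest and lowest of each class in each measure, near-identical copies and genes below the minimum. DNAJC5, DNAJC9, DNAJB6, HSPA13 and HSF1 were named after their values were seen. Of the co-chaperones called in RNA level, 1 gene is counted but not reported here. Alternatives were DESeq2 1.42.0, other scaling, filters, read regions and transcripts, no block, and each replicate left out. Promoters came from RefSeq (GRCh38.p14).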

Additional observations from a re-analysis of the deposited data

How the results depend on the processing

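Without the replicate block no gene was called in any of the 4 measures, so 0 members remained called in RNA level and 0 in TE, and 1 block shared by both assays likewise left 0 genes and 0 members in TE. The calls on RNA level fell to 101 genes and 3 members with DESeq2 (HSP90AB1, HSPA8 and HSPA9, with no adjusted p for 42 of 57 members, HSPA1B and DNAJC19 among them) and to 344 genes and 2 members with CDS reads. In occupancy DESeq2 called 54 genes, whereas upper-quartile factors gave 479 genes and 1 member, DESeq2 size factors 571 and 2, no filter 537 and 2, and a mean of at least 50 counts 581 and 2. In TE the counts of genes were 95 with DESeq2, 143 with upper-quartile factors, 457 with no filter, 136 at a mean of at least 50 and 80 with CDS reads of mRNA-seq. Members called in TE were 2 with no filter (DNAJC10 and DNAJC5), 1 with the reads of HSPA1A and HSPA1B summed, an alternative chosen after seeing the data, and 0 in the 9 others. A leader minimum of 50 called 3 genes.

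With one replicate at a time, median RNA changes ran from 0.051 to 0.066 over all members, 0.077 to 0.081 in the HSF1-inducible class, 0.10 to 0.12 in the ER, 0.0014 to 0.069 in the mitochondrial and -0.00011 to 0.035 in the constitutive and other class. The occupancy medians ran from -0.11 to 0.19 (HSF1-inducible), -0.026 to 0.10 (ER) and -0.11 to -0.026 (mitochondrial), and the TE medians from -0.13 to 0.014 (all members), -0.014 to 0.14 (HSF1-inducible), -0.24 to 0.021 (mitochondrial) and -0.28 to 0.073 (constitutive and other). The control TE medians ran from 0.27 to 0.70 over all members, 0.084 to 0.40 in the mitochondrial and 0.26 to 0.45 in the constitutive and other class, whose median was 0.40 with whole-transcript mRNA-seq reads. The median RNA change in the HSF1-inducible class was 0.063 with upper-quartile factors, 0.075 with DESeq2 size factors, 0.075 at a mean of 50, 0.061 with CDS reads and 0.077 with the transcript of most mRNA-seq reads. In the ER class it was 0.048 with DESeq2, 0.066 without the block and 0.050 with CDS reads. At a mean of 50 the mitochondrial medians were -0.14 in occupancy and -0.35 in TE, beside 0.043 and 0.042 in the main fits. The sign of these medians therefore depended on the filter.

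With both replicates kept, 5 of 652 tested single-gene values turned sign, none of them called. They were HSPE1 in RNA level with DESeq2 (0.042) and, in TE, HSPA1B with CDS reads of mRNA-seq (0.072), DNAJA1 at a mean of 50 (8.18e-04) and without the block (0.00568) and DNAJA3 with the shared block (1.43e-04). With 1 replicate left out there was no test, and 25 of 154 single-gene values, none called with both replicates, turned sign, such as the leader shifts of HSPA4 (-1.95) and HSP90AA1 (-0.73) without replicate 2. The cause of these shifts was not tested. With 2 replicates, of which replicate 1 is shallow, changes of the size seen in occupancy and TE carry standard errors above 0.13 for every member.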
